A study of Mus musculus with 6 samples.

Results

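The genes of the pyruvate dehydrogenase complex and of the enzymes that switch it off and on were followed in mouse myocardium. They are 10 of the 27307 gene symbols on the array, found there by symbol: the subunit genes *Pdha1*, *Pdhb*, *Dlat*, *Dld* and *Pdhx*, the kinase genes *Pdk1*, *Pdk2* and *Pdk4*, and the phosphatase genes *Pdp1* and *Pdp2*. They carried 21 probes in all, of which 19 passed the filter on dim probes, with at least 1 probe for each of the 10 genes. The 2 probes that did not pass, 1 of 2 for *Pdha1* and 1 of 5 for *Pdk1*, were not well above background on any of the 6 arrays.

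RNA came from the hearts of 6 male C57BL/6J mice, all labelled *Clk4*-cKO, 3 given AAV NEXN-WT and 3 given AAV NEXN-S437E, with 1 single-colour Agilent array for each mouse. NEXN is a protein of the cardiac sarcomere, and NEXN-S437E carries a substitution that mimics its phosphorylated form, with NEXN-WT as the control. In these mice floxed *Clk4*, which encodes a CDC-like kinase, is deleted after tamoxifen by a Cre fused to parts of the estrogen receptor, MerCreMer, under the cardiomyocyte promoter of α-MHC; per the methods, the NEXN vectors were AAV9 with a CMV promoter, which is not restricted to cardiomyocytes, and GFP. By the labels both groups carry the *Clk4* deletion and no group with intact *Clk4* was analysed here, and the labels give no age.

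The pyruvate dehydrogenase complex sits in the mitochondrial matrix and turns pyruvate into acetyl-CoA, which joins glycolysis to the tricarboxylic acid cycle. Pyruvate dehydrogenase kinases phosphorylate its E1 subunit and shut it down, and the phosphatases reverse this. In the heart this switch sets how much glucose is oxidised beside fatty acids, and *Pdk4* is known as the isoform that fasting and fatty acids induce through nuclear receptors.

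Levels are given as log2 of the processed signal minus the 75th percentile of the array, so a level of 0 is the 75th percentile of that array. Levels of different probes are not comparable with each other, since probes differ in how they bind. The 75th percentile itself ran from 110 to 273 signal units and 41.9% to 47.8% of the spots of an array were well above background. NEXN-WT replicate 1 had the highest value of both and stood apart from the other arrays: its mean absolute difference was 0.38 to 0.56 from each of the other 5 and 0.19 to 0.33 between any pair of those 5. All arrays were on 1 slide, row 1 holding all of the NEXN-WT group plus NEXN-S437E replicate 1 and row 2 the remaining NEXN-S437E arrays.

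The labels were checked first. *Clk4* probe A_52_P445387 read 1.48, 1.12 and 1.30 with NEXN-WT and 1.49, 1.18 and 1.63 with NEXN-S437E, so the groups overlapped. The other *Clk4* probes, A_52_P128262 and A_52_P368396, were dim (well above background on 3 and 2 of the 6 arrays) and did not pass the filter. The first read -3.17, -3.73 and -3.43 with NEXN-WT and -3.04, -2.85 and -3.08 with NEXN-S437E, higher in the latter without overlap, and the second read -3.34, -4.17 and -4.13 and then -3.24, -3.39 and -3.21, with overlap. Whether any of these probes lies in the deleted exons was not determined, so none is a check of the deletion. The 2 *Nexn* probes differed by 0.02 and 0.14 on the log2 scale (limma adjusted p = 0.977 and 0.737). *Esr1* probe A_55_P2030883, for the estrogen receptor gene of which MerCreMer holds a part, read 3.13, 5.82 and 5.21 with NEXN-WT and -5.30, -5.63 and -5.41 with NEXN-S437E. It was well above background on 3 of 3 NEXN-WT arrays and on 0 of 3 NEXN-S437E arrays, in these values at least 255-fold higher in the former. It thus passed the filter only through the NEXN-WT group, so its p is not given. Its difference was -10.16, and -6.06 under normexp background correction. Of the other 6 *Esr1* probes 4 were not well above background on any array, and A_52_P237077 and A_65_P17231 differed far less, with overlap: the former, well above background on 0 of 3 NEXN-S437E arrays, was at least 1.55-fold higher with NEXN-WT, and the latter differed by -0.58. By the labels both groups carry MerCreMer, and whether this probe reads the part of the receptor that MerCreMer holds was not determined. If it does, it goes against the label of 1 group. An effect of NEXN-S437E cannot be told apart from whatever else separates the arrays. The group names below mean the arrays so labelled.

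The comparison asked whether the complex and its regulators differed between *Clk4*-cKO hearts given the phosphorylation mimic and those given NEXN-WT. No member probe passed the threshold. At an adjusted p of 0.05 the count was 0 of 19 (0.161% of the 22998 probes tested passed), and by the study's own rule, at least 2-fold and an unadjusted p of 0.05, it was also 0 of 19 (2.52% of all). At an unadjusted p under 0.05, 6 of 19 probes, of 6 different genes, were higher with NEXN-S437E and 0 lower, beside 10.5% of all probes higher and 6.7% lower. That count of 6 went from 1, without NEXN-S437E replicate 2 or 3, to 7 with an array left out, and it came to 2 when arrays were scaled by their detected probes. All 19 log2 fold changes were above 0, from 0.00 to 0.89, as were 60.8% of all tested. Their median was 0.35, against 0.09 over all tested probes, and 18 of the 19 lay above that median. In 10 of the 19 probes the groups did not overlap, each time with NEXN-S437E higher, as in 18.7% of all tested probes. In the deposited normalized values this held for 8 of 19, beside 13.3% of all. The smallest adjusted p was 0.206. With array weights estimated from the data, 8 of the 19 passed the adjusted p, all higher, beside 16.6% of all probes.

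**Figure D1:**
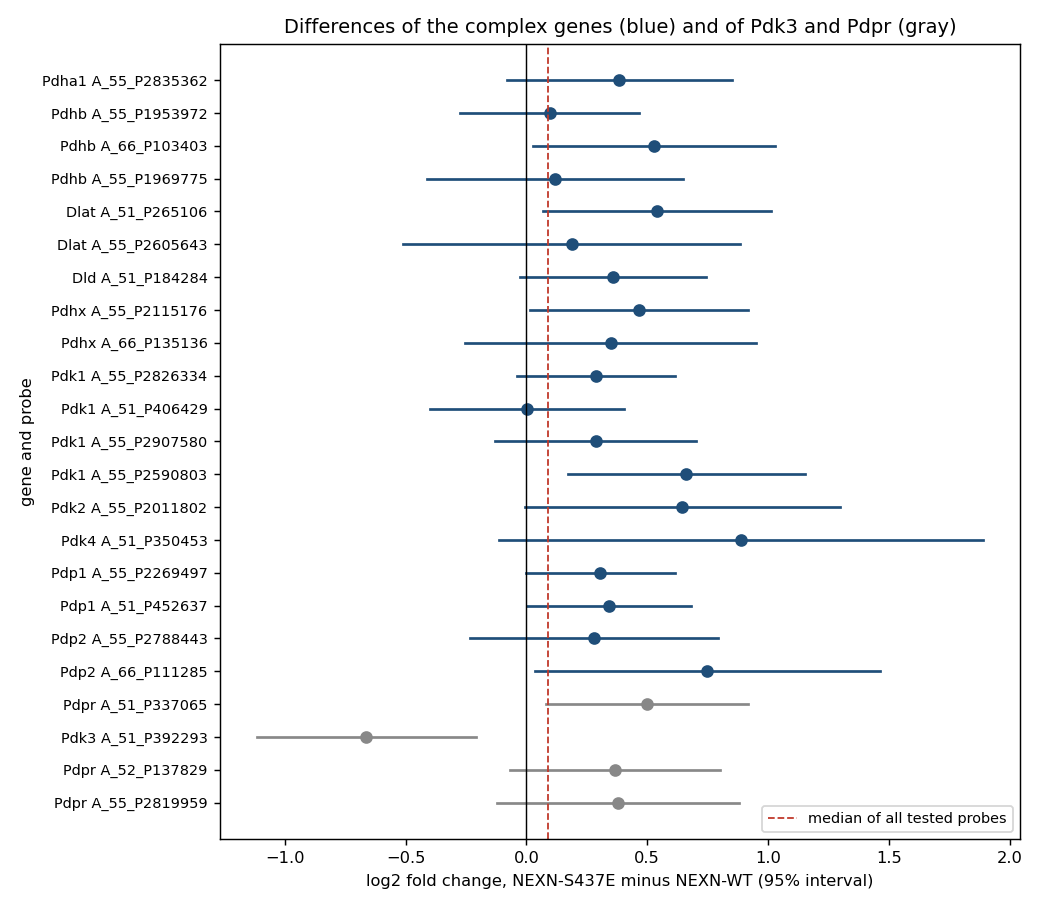
Log2 fold change of each tested probe (x axis, NEXN-S437E minus NEXN-WT, n = 3 against 3) with its 95% interval from limma, for the 19 probes of the complex genes in blue and the probes of *Pdk3* and *Pdpr* in gray; the dashed line is the median of all tested probes, 0.09. All blue points lie at or right of 0, with 6 intervals clear of 0, and *Pdk3* lies left of it.

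NEXN-WT replicate 1 held the lowest value of 11 of the 19 probes, and of 41.4% of all tested probes. Without it the median difference of the members was 0.31, 18 of 19 were above 0 and 2 of 19 had an unadjusted p under 0.05. Within slide row 1, where NEXN-S437E replicate 1 is the lone array of its group, 14 of 19 were above 0, as were 60.7% of all probes, and the median of the 19 was 0.33. The probes below 0 there were those of *Pdha1* (-0.00011), *Pdhb* A_55_P1969775 (-0.070), *Pdhb* A_55_P1953972 (-0.045), *Dlat* A_55_P2605643 (-0.37) and *Pdk1* A_51_P406429 (-0.30).

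The pyruvate dehydrogenase E1 component, which decarboxylates pyruvate, is built from the products of *Pdha1* and *Pdhb*. *Pdha1* lies on the X chromosome, and its probe A_55_P2835362 (mm9 chrX:156560573-156560632) read 4.30, 4.27 and 4.57 with NEXN-WT and 4.38, 5.03 and 4.88 with NEXN-S437E. NEXN-S437E replicate 1 lay within the NEXN-WT range and the other 2 above it, for a difference of 0.38 ± 0.20 (SE, n = 3 against 3, adjusted p = 0.354). It ran from 0.25 without NEXN-S437E replicate 2 to 0.58 without NEXN-S437E replicate 1, and was 0.24 under quantile normalization. *Pdhb* had 3 tested probes on chromosome 14, which did not read alike. Probe A_66_P103403 (mm9 chr14:8997620-8997679) read 1.72, 2.03 and 2.56 with NEXN-WT and 2.67, 2.63 and 2.60 with NEXN-S437E. The groups did not overlap, and the NEXN-S437E arrays had an SD of 0.03, for a difference of 0.53 ± 0.22 (SE, unadjusted p = 0.0411, adjusted p = 0.270). Without NEXN-WT replicate 1 it was 0.34. Probe A_55_P1953972 read 6.65, 6.26 and 6.41 with NEXN-WT and 6.40, 6.65 and 6.57 with NEXN-S437E. These ranges overlap nearly in full, with a difference of 0.10 and a 95% interval from -0.28 to 0.47. The last probe, A_55_P1969775, differed by 0.12 with overlap (interval -0.41 to 0.65). The sign of A_55_P1953972 turned under quantile normalization (-0.14) and in the deposited normalized values (-0.14).

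*Dlat* encodes the E2 core, the acetyltransferase that carries lipoic acid. Its probe A_51_P265106 (mm9 chr9:50442953-50443012) read 2.74, 3.30 and 3.41 with NEXN-WT and 3.53, 3.72 and 3.82 with NEXN-S437E. Every NEXN-S437E array was above every NEXN-WT array, with a difference of 0.54 ± 0.20 (SE, unadjusted p = 0.0297, adjusted p = 0.248). Without NEXN-WT replicate 1 that difference was 0.34. The other *Dlat* probe, A_55_P2605643 (mm9 chr9:50445621-50445680), read 2.10, 2.84 and 2.96 and then 2.26, 3.13 and 3.06. Replicate 1 was the lowest array in both groups for it, and the difference was 0.19 with an interval from -0.51 to 0.88. The last 30 bases of these 60-base probes are shown because both match the same transcript record and read differently.
Dlat A_51_P265106: ttagcatgaggcaaatctgatcaaatgtga
Dlat A_55_P2605643: tttctctgcaattattaatccacctcaggc

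*Dld* encodes E3, the dihydrolipoamide dehydrogenase that the complex shares with the 2-oxoglutarate and branched-chain complexes. Its probe read 3.69, 3.65 and 3.89 with NEXN-WT and 3.85, 4.29 and 4.16 with NEXN-S437E, a difference of 0.36 ± 0.17 (SE, adjusted p = 0.312). NEXN-S437E replicate 1 again lay within the NEXN-WT range, as for *Pdha1*. *Pdhx* encodes the protein that binds E3 to the core, and its probe A_55_P2115176 read 1.64, 2.04 and 2.09 and then 2.09, 2.58 and 2.49. The groups touched without overlap here and overlapped in the deposited normalized values, and the difference was 0.47 ± 0.20 (SE, unadjusted p = 0.0444, adjusted p = 0.278). The second *Pdhx* probe read -2.34, -1.39 and -1.45 and then -1.21, -1.44 and -1.48. NEXN-WT replicate 1 was below the other 5 arrays there, which lay between -1.48 and -1.21, and without it the difference of 0.35 came to 0.041. Averaged over the 5 subunit genes, with 1 probe for each gene and its own mean subtracted, the arrays stood at -0.31, -0.21 and -0.04 with NEXN-WT and -0.06, 0.34 and 0.27 with NEXN-S437E, so NEXN-S437E replicate 1 fell among the NEXN-WT arrays.

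**Figure D2:**
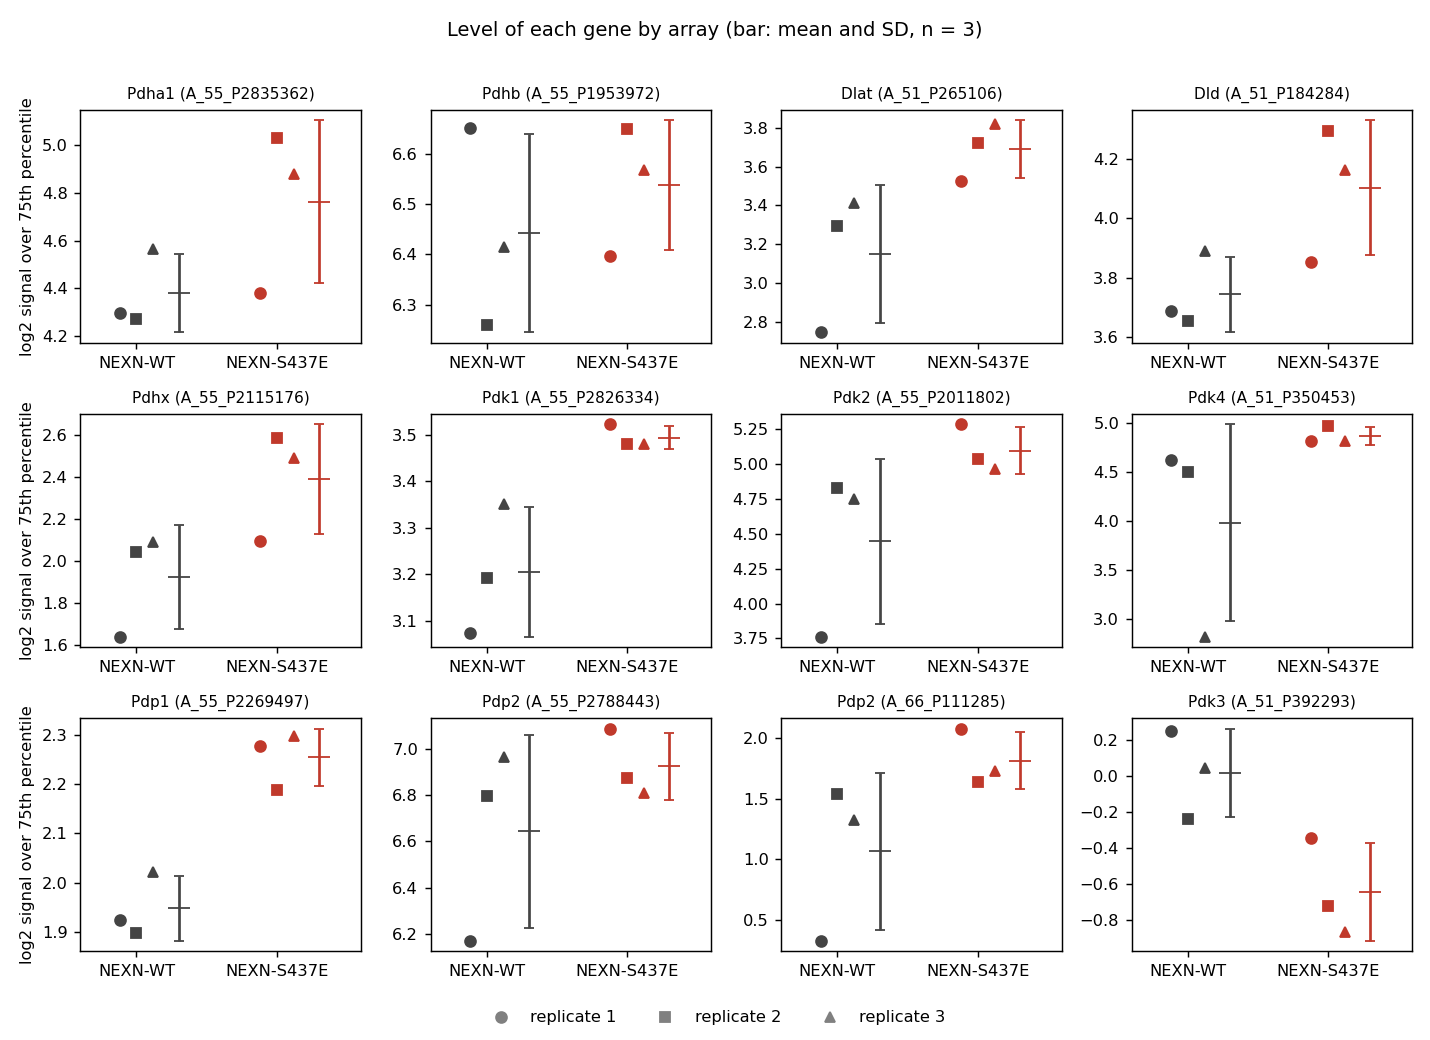
Level on each array (y axis, log2 signal over the 75th percentile of the array, with a scale of its own in each panel) for the probe of highest mean of each of the 10 genes, the second *Pdp2* probe and *Pdk3*; symbols mark replicates 1 to 3 and bars the mean and SD of each group. *Pdk4* is low on 1 NEXN-WT array (2.82) and *Pdk2* on another (3.76), while *Pdk3* is lower on all 3 NEXN-S437E arrays.

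Among the kinases no probe passed the threshold. *Pdk4* encodes the isoform tied to fatty acid use, and its only probe, A_51_P350453 (mm9 chr6:5433441-5433500), read 4.63, 4.50 and 2.82 with NEXN-WT and 4.82, 4.97 and 4.81 with NEXN-S437E. The NEXN-S437E arrays were tight (SD 0.09) and the NEXN-WT arrays were not (SD 1.01), because replicate 3 was far below the other 2. The difference, 0.89 ± 0.43 (SE, 1.85-fold, adjusted p = 0.330), was the highest of the 19 probes, with an interval from -0.11 to 1.89. Leaving out NEXN-WT replicate 3 brought it to 0.31, and leaving out replicate 1 of that group to 1.21. In the deposited normalized values *Pdk4* read 12.18, 11.89 and 10.14 and then 12.05, 12.25 and 12.10, so that there the groups overlapped.

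*Pdk2* encodes the most widely expressed isoform. Its probe A_55_P2011802 read 3.76, 4.82 and 4.75 with NEXN-WT and 5.28, 5.03 and 4.96 with NEXN-S437E, a difference of 0.65 ± 0.28 (SE, unadjusted p = 0.0517, adjusted p = 0.293). Here the low array was NEXN-WT replicate 1, and the other 2 NEXN-WT arrays lay just below the NEXN-S437E arrays. Without it the difference was 0.31, and with array weights 0.24. The low array was thus a different one for *Pdk2* than for *Pdk4*. *Pdk1*, a target of HIF-1, had 4 tested probes on chromosome 2. Probe A_55_P2590803, whose 60 bases span 295 bases of mm9 (chr2:71721635-71721929), read -2.91, -2.57 and -2.56 and then -1.65, -2.37 and -2.04. The groups did not overlap, and the difference of 0.66 ± 0.21 (SE) had the smallest p of the 19 probes (unadjusted p = 0.0145, adjusted p = 0.206). Probe A_51_P406429 read -0.38, -0.58 and -0.54 and then -0.80, -0.32 and -0.37, a difference of 0.00 with an interval from -0.40 to 0.41. The brightest *Pdk1* probe, A_55_P2826334, read 3.07, 3.19 and 3.35 and then 3.52, 3.48 and 3.48, a difference of 0.29 without overlap (adjusted p = 0.331). The last *Pdk1* probe also differed by 0.29, with overlap (adjusted p = 0.423), and by 0.13 without NEXN-WT replicate 1. The last 30 bases of the probes with the largest and the smallest *Pdk1* difference are given to show that they read different stretches of the gene.
Pdk1 A_55_P2590803: ccttattgttcggtggaaaaggaagtccat
Pdk1 A_51_P406429: aactttggtgccagtgataggaacatgcag

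*Pdk3*, the remaining kinase gene of the family and no member of the set above, had a difference below 0. Its probe A_51_P392293 on the X chromosome read 0.25, -0.24 and 0.04 with NEXN-WT and -0.34, -0.72 and -0.87 with NEXN-S437E. All 3 NEXN-S437E arrays were below all 3 NEXN-WT arrays, as in 9.17% of all probes, with a difference of -0.66 ± 0.20 (SE, unadjusted p = 0.00993, adjusted p = 0.189). The second *Pdk3* probe stayed below that detection limit throughout. The difference between 2 kinase probes within each array was compared between the groups for all 6 pairs of *Pdk1*, *Pdk2*, *Pdk3* and *Pdk4*. In the pairs with *Pdk3* the groups differed by 0.95 ± 0.23 (*Pdk1* over *Pdk3*, SE), 1.31 ± 0.47 (*Pdk2* over *Pdk3*) and 1.55 ± 0.63 (*Pdk4* over *Pdk3*). Leaving out NEXN-WT replicate 1 brought the second to 0.85, and leaving out NEXN-WT replicate 3 brought *Pdk3* over *Pdk4* from -1.55 to -0.96. In each of these the groups did not overlap, and in the other 3 pairs they did, with differences of -0.36 (*Pdk1* over *Pdk2*), -0.60 (*Pdk1* over *Pdk4*) and -0.24 (*Pdk2* over *Pdk4*), of which the last 2 turned above 0 without NEXN-WT replicate 3 (0.054 and 0.49) and the first came to -0.083 without NEXN-WT replicate 1. The pairs were chosen after the difference of *Pdk3* had been seen to lie below 0, so these differences are a description, with no test.

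**Figure D3:**
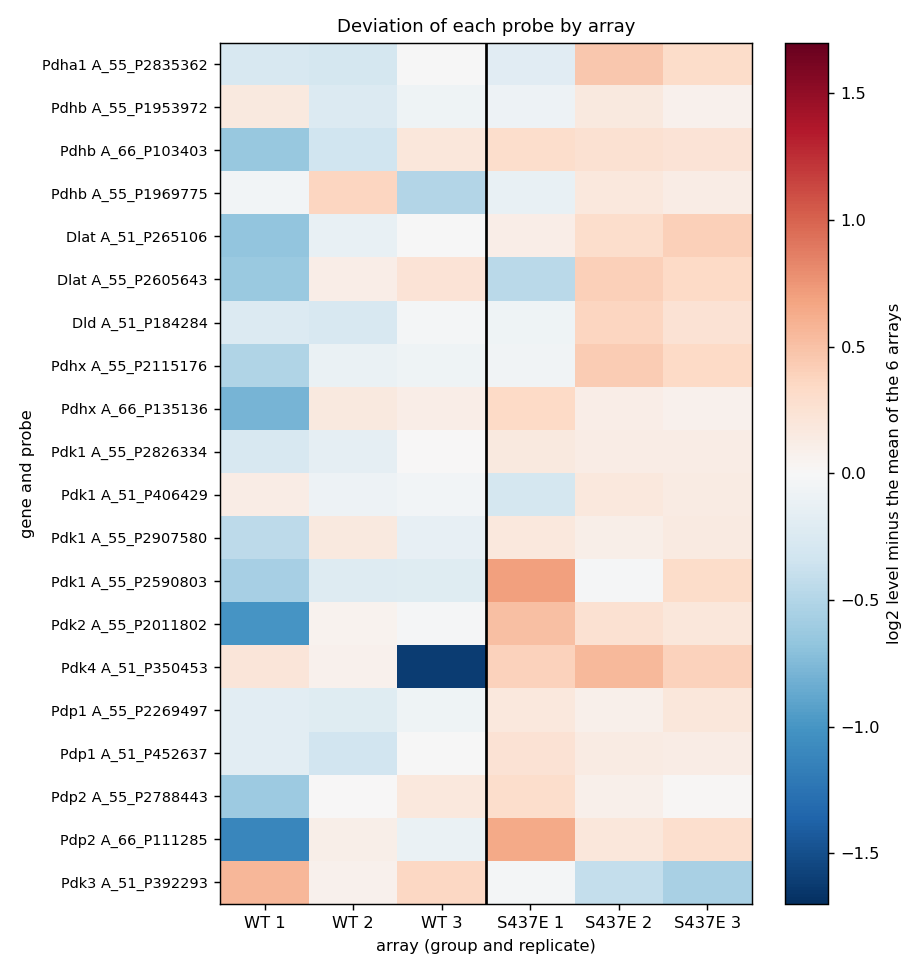
Log2 level of each tested probe (rows) on each array (columns) minus the mean of the 6 arrays, for the 19 probes of the complex genes and *Pdk3*, with red above and blue below the mean. NEXN-WT replicate 1 is the lowest array in 11 of the 19 rows, *Pdk4* stands out as low in NEXN-WT replicate 3, and *Pdk3* is below its mean on all 3 NEXN-S437E arrays.

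Among 12922 other genes well above background on all 6 arrays, the 5 whose probes followed *Pdk4* most closely were *Ddx6*, *Gm28515*, *Map9*, *Nat10* and *Tcf25*, with Pearson r from 0.97 to 0.98 over 6 arrays. All 5 were lowest on NEXN-WT replicate 3, so the likeness rests on that array. *Tcf25*, a transcriptional regulator, read 5.62, 5.44 and 3.04 with NEXN-WT and 5.54, 5.41 and 5.41 with NEXN-S437E, and its drop on that array was the largest of the 5. *Angptl4*, an inhibitor of lipoprotein lipase that fasting also induces, was looked at after these values were seen and read 3.47, 2.01 and 1.09 and then 2.42, 2.29 and 2.52. It was also lowest on NEXN-WT replicate 3, and differed by 0.22 between the groups (adjusted p = 0.839), by -0.33 without that array and by 0.86 without NEXN-WT replicate 1.

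*Pdp1* and *Pdp2* encode the catalytic subunits of the phosphatases that reactivate the complex. *Pdp1*, the calcium-sensitive isoform, had 2 probes in near agreement. Probe A_55_P2269497 (mm9 chr4:11885487-11885546) read 1.92, 1.90 and 2.02 with NEXN-WT and 2.28, 2.19 and 2.30 with NEXN-S437E. Probe A_51_P452637 read -0.11, -0.25 and 0.08 and then 0.33, 0.21 and 0.21. Neither showed overlap, and the differences were 0.31 ± 0.13 and 0.34 ± 0.15 (SE, unadjusted p = 0.0516 and 0.0496, adjusted p = 0.293 and 0.289). Of the 6 member genes with more than 1 tested probe, *Pdp1* was the only one whose every tested probe kept the groups apart.

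The *Pdp2* probes read differently, and their sequences differ in kind. Probe A_66_P111285 read 0.33, 1.54 and 1.33 with NEXN-WT and 2.08, 1.64 and 1.73 with NEXN-S437E, without overlap, a difference of 0.75 ± 0.31 (SE, unadjusted p = 0.0421, adjusted p = 0.272). NEXN-WT replicate 1 was again the low array, and without it the difference was 0.38 (0.27 with array weights). Probe A_55_P2788443 read 6.17, 6.80 and 6.96 and then 7.09, 6.87 and 6.81, with overlap and a difference of 0.28 (interval -0.23 to 0.79), which came to 0.045 without NEXN-WT replicate 1, 0.069 under quantile normalization and 0.036 in the deposited values. Its last 36 bases alternate G and T, and capitals mark that run in the last 30 bases below, beside those of the other probe.
Pdp2 A_55_P2788443: GTGTGTGTGTGTGTGTGTGTGTGTGTGTGT
Pdp2 A_66_P111285: cttgtttccactgtatcatccacacactag
Of the 56605 probes on the array, 48 hold such a run of at least 20 bases, and 48 of those 48 passed the filter on dim probes, which 40.6% of all probes passed. The levels of those 48 ran from 3.71 to 7.48, with a median of 6.38, and the values of A_55_P2788443 lay within that range. A run of this kind is shared by many transcripts, so which of them this probe read was not tested. As the brighter probe, A_55_P2788443 still stands for *Pdp2* wherever 1 probe is taken for each gene. *Pdpr*, the regulatory subunit of the phosphatase, had 3 tested probes that differed by 0.50, 0.37 and 0.38. The first, A_51_P337065, read 1.95, 2.29 and 2.56 and then 2.77, 2.81 and 2.72, without overlap (unadjusted p = 0.0250, adjusted p = 0.237). The second, A_52_P137829, read 1.73, 2.31 and 2.26 and then 2.58, 2.46 and 2.37, with NEXN-WT replicate 1 the low array.

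The promoter windows of 9 of the 10 genes, 11 windows in all, were matched by symbol in RefSeq (GRCm38.p6) and searched on both strands over the 250 bases before the start. The windows of *Pdk4* (chr6:5496279-5496528, minus strand) and of the upstream start of *Pdk2* (chr11:95041372-95041621, minus strand) are shown because these kinases had the largest differences over the 6 arrays by the probe of highest mean of each gene. Other probes lay above *Pdk2* (0.65): *Pdp2* A_66_P111285 (0.75) and *Pdk1* A_55_P2590803 (0.66). The order also rests on single arrays, since *Pdk4* came to 0.31 without NEXN-WT replicate 3, and *Pdk2* to 0.31 without NEXN-WT replicate 1, below the 0.34 of *Dlat* and of *Pdha1*. Capitals mark the motifs found, CCAAT (on the other strand ATTGG) and CACGTG.
Pdk4: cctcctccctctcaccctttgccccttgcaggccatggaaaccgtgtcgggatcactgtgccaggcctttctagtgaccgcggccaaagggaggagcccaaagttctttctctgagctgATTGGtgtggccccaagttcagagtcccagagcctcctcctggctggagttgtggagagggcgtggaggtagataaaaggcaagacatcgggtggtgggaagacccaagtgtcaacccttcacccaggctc
Pdk2: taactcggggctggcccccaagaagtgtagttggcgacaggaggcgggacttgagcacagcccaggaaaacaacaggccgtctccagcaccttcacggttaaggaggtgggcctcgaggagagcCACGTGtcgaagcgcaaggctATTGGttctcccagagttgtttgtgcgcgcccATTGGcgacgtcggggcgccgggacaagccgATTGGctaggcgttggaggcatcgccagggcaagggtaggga
CCAAT, bound by NF-Y, was in 5 of the 11 windows (*Pdhb*, *Dld*, *Pdk2*, *Pdk4* and *Pdp2*) and in 33.8% of all 32851 windows. CACGTG, the E-box, was in 2 (*Pdk2* and *Pdp2*) and in 6.02% of all. ACGTG, the core bound by HIF-1, which lies within CACGTG, was in 3 (*Pdhb*, *Pdk2* and *Pdp2*) and in 16.6% of all. GGGCGG, the GC box, was in 5 and in 32.7% of all, and CCGGAA, an ETS site, in 1 and in 12% of all. AGGTCA, the nuclear receptor site, its longer form TCAAGGTCA bound by estrogen-related receptors, and TGTTTAC, bound by FOXO factors, were in 0 of the 11 windows and in 14%, 0.387% and 3.17% of all. A match is a run of letters only, and motifs outside these windows were not searched.

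Genes around the complex were taken from 8 lists with 82 genes, of which 79 were tested, each by its probe of highest mean. None of the 79 passed the adjusted threshold, 30 had an unadjusted p under 0.05, and 1 also reached 2-fold. The 30 became 15 under quantile normalization and in the deposited values, and 15 to 41 with an array left out. Taken 1 probe for each gene, 0.204% of 13747 genes passed the adjusted threshold, 2.92% the 2-fold rule, and 10.1% were higher and 7.91% lower at an unadjusted p under 0.05. All 17 genes of the tricarboxylic acid cycle had values above 0 (median 0.46, against 0.07 over all genes), with 6 at an unadjusted p under 0.05. The median was 0.26 with 3 such genes without NEXN-WT replicate 1, 0.60 with 12 without NEXN-WT replicate 3, and 0.25 with 3 under quantile normalization, where 16 of 17 were above 0. *Idh2* and *Idh3a*, isocitrate dehydrogenase genes, differed by 0.53 and 0.59 (adjusted p = 0.204 and 0.209).

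The genes that bring pyruvate to the complex or draw it away stood near the cycle genes, with a median of 0.45 over 11 genes, 6 higher and 1 lower at an unadjusted p under 0.05. Without NEXN-WT replicate 1 the median was 0.33 with 3 higher, and under quantile normalization 0.25 with 2 higher. *Gpt*, an alanine aminotransferase, differed by 0.99 and *Ldhb*, the heart form of lactate dehydrogenase, by 0.60 (adjusted p = 0.222 for both). Both were lowest on NEXN-WT replicate 1. With NEXN-WT *Gpt* read 2.34, 3.62 and 3.60 and *Ldhb* 7.60, 8.17 and 8.36. *Mpc1* and *Mpc2*, the mitochondrial pyruvate carrier, read 0.45 and 0.59 higher. The 1 lower gene was *Slc16a3*, a lactate exporter, at -0.76 (adjusted p = 0.225). Of the branched-chain complex and lipoate synthesis 9 of 9 tested genes were above 0 (median 0.43; 0.29 without NEXN-WT replicate 1), 4 of them at an unadjusted p under 0.05 and 1 under quantile normalization, with *Bckdhb* at 0.74 and *Bckdha* at 0.55, both E1 subunits of that complex.

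Of 15 PPAR alpha target genes, which serve fatty acid uptake and oxidation, 14 were above 0 (median 0.50) and 8 had an unadjusted p under 0.05, all higher; under quantile normalization the median was 0.32 with 4 such genes. *Acot1* and *Acot2*, acyl-CoA thioesterases, differed by 1.16 and 0.77 (adjusted p = 0.207 and 0.134), and *Acadm*, the medium-chain acyl-CoA dehydrogenase, by 0.69 (adjusted p = 0.158). *Acot1* was the 1 gene of the 79 past 2-fold, and it read 1.21, 2.81 and 2.41 with NEXN-WT and 3.49, 3.36 and 3.07 with NEXN-S437E. It came to 0.70 without NEXN-WT replicate 1, the low array, and 0.50 with array weights, and its unadjusted p to 0.0522 without NEXN-S437E replicate 1 and 0.0791 by the methods' t-test. The nuclear regulators of *Pdk4* had a median of 0.26 over 11 genes with 1 at an unadjusted p under 0.05, *Pparg* at 0.54 (adjusted p = 0.255), followed by *Esrra* at 0.35 (adjusted p = 0.343). That median was 0.07 with 0 such genes without NEXN-WT replicate 1 and -0.09 with array weights. The HIF-1 targets (9 tested) had a median of 0.03 and the glucocorticoid targets (5 tested) one of -0.09, against 0.07 over all genes. The HIF-1 median was -0.04 under quantile normalization and -0.06 without NEXN-WT replicate 1. The glucocorticoid median was -0.24 under quantile normalization, and with replicate 3 of the NEXN-WT group left out it was -0.22, with replicate 1 left out 0.04. Among the HIF-1 targets *Bnip3* differed by 0.59 and *P4ha1* by -0.54 (adjusted p = 0.189 and 0.200), and among the glucocorticoid targets *Fkbp5* by -0.44 and *Per1* by 0.37 (adjusted p = 0.447 and 0.526). *Fkbp5* was highest on NEXN-WT replicate 1 and read 3.65, 3.13 and 2.47 with NEXN-WT and 2.36, 2.79 and 2.78 with NEXN-S437E.

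**Figure D4:**
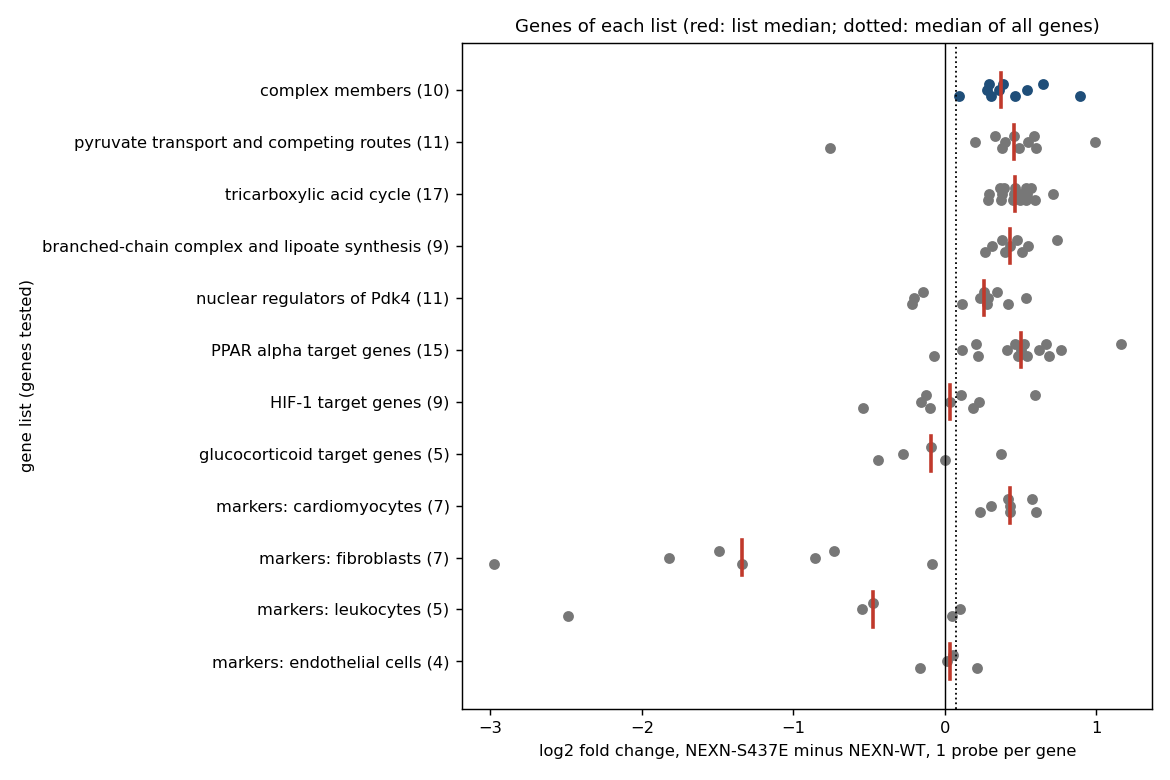
Log2 fold change of every tested gene (x axis, NEXN-S437E minus NEXN-WT, 1 probe for each gene) in the complex (blue), the neighbouring lists and the cell type marker lists with at least 4 tested genes (gray); red bars are list medians and the dotted line is the median of all genes, 0.07. The complex (0.37), the tricarboxylic acid cycle (0.46) and the cardiomyocyte markers (0.43) have nearly the same median, and the fibroblast markers lie far below 0 (-1.34).

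Markers of cell types were compared too, each by its probe of highest mean, and among them *Cd3d* alone passed the adjusted p. In bulk tissue fewer cells of a type and less RNA for each cell cannot be told apart. All 7 cardiomyocyte markers, every one well above background, were above 0 (median 0.43, 3 at an unadjusted p under 0.05), with *Myh6* at 0.58 and *Tnni3* at 0.60. Under quantile normalization and in the deposited values 5 of 7 were above 0, with a median of 0.20 and 0 at an unadjusted p under 0.05. Their mean level ran from 6.92 to 7.38 on the NEXN-WT arrays, lowest on replicate 1, and from 7.55 to 7.71 on the NEXN-S437E arrays. The 7 fibroblast markers lay the other way, with a median of -1.34 and 6 of 7 lower at an unadjusted p under 0.05. *Postn* differed by -2.98, *Col1a1* by -1.82, *Col1a2* by -1.49 and *Col3a1* by -1.34, all genes of the extracellular matrix. *Postn* read 6.18, 3.54 and 3.74 with NEXN-WT and 1.48, 1.40 and 1.63 with NEXN-S437E. *Dcn* differed by -0.08 (adjusted p = 0.777). Without NEXN-WT replicate 1 the median of the 7 markers was -1.09. Their mean level ran from 5.61 to 6.63 with NEXN-WT, highest on replicate 1, and from 4.57 to 4.70 with NEXN-S437E. Of the 5 tested leukocyte markers, 3 were below 0 and 2 above, *Cd68* at 0.10 and *Lyz2* at 0.04. Under quantile normalization, normexp, the percentile over detected probes and the deposited values 0 of 5 were above 0. By its probe of highest mean 1 of the 5, *Cd3d* of the T cell receptor, fell, by 2.49 (adjusted p = 0.0221). That call was lost without NEXN-WT replicate 2 or 3 (adjusted p = 0.0812 and 0.0623), without NEXN-S437E replicate 3 (0.0838), without the filter on dim probes (0.125), by the methods' t-test (0.328), with the replicate block (0.0510), with the slide row as a block (0.137) and within row 1 (0.185), at differences from -2.54 to -1.98. The other *Cd3d* probe was well above background on 3 of 3 and 0 of 3 arrays. It thus passed the filter only through the NEXN-WT group, so its p is not given. In the main values it was at least 4.59-fold higher with NEXN-WT. Under normexp background correction its difference was -0.90, less than 2-fold. *Ptprc* differed by -0.55 (adjusted p = 0.298); the mean level of that list ran from 1.42 to 1.71 and from 1.12 to 1.20. The 4 endothelial markers had a median of 0.03, with *Tek* at -0.16 and *Kdr* at 0.21 (adjusted p = 0.579 and 0.641), and a mean level from 2.51 to 3.06 and from 2.79 to 2.91. That median turned to -0.05 under quantile normalization and in the deposited values, and to -0.13 with 0 of 4 above 0 without NEXN-WT replicate 1. The adipocyte list had 1 tested gene, *Lep* at 0.36 (adjusted p = 0.345), with *Plin1* and *Retn* not well above background on any array; the mean level of its 6 genes ran from -4.94 to -4.28 with NEXN-WT and from -3.83 to -3.12 with NEXN-S437E, without overlap, but 5 of them did not pass the filter, and with no filter 74.1% of all probes were above 0 (median 0.28). The skeletal muscle list had 3 tested genes, with *Myh1* not well above background, and a mean level from -3.48 to -2.92 and from -3.45 to -2.80. *Myh4*, a fast myosin heavy chain, and *Tnnt3*, fast troponin T, passed the filter only through the group where each was high. *Myh4* was well above background on 2 of 3 NEXN-WT and 3 of 3 NEXN-S437E arrays and read -3.71, -3.18 and -3.48 and then -2.53, -2.54 and -2.85. *Tnnt3* was well above background on 3 of 3 and 0 of 3, at least 1.64-fold higher with NEXN-WT. The mean level of the 3 erythrocyte markers ran from 0.65 to 2.25 with NEXN-WT and from 0.41 to 3.80 with NEXN-S437E, with *Alas2* differing by 0.47 and *Hbb-b1* by 0.36 (adjusted p = 0.792 and 0.825). Both rest on NEXN-S437E replicate 1, without which they were -0.61 and -0.60, and with array weights they were -0.18 and -0.19. The part of these markers in the differences of the complex genes was not tested.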

How the data were processed

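The 6 samples were single-colour arrays of myocardial RNA, grouped by their own labels. The authors extracted the scans with Agilent Feature Extraction 10.7.1.1 and deposited spot intensities with the background subtracted, not normalized between arrays. A series table that the authors deposited adds log2 values, normalized in a way not given in the sources used here, and probe coordinates on mm9.

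From the processed intensity, control and outlier spots were left out, the 75th percentile of each array was subtracted on the log2 scale, and up to 10 spots of a probe were averaged. A probe was tested if some group had it well above background on each of its 3 arrays (22998 probes). The test was limma 3.58.1 under R 4.3.3, by lmFit and eBayes, and p-values were adjusted by Benjamini-Hochberg over all of them. A call needed an adjusted p under 0.05 or, by the study's 2-fold rule, at least 2-fold and an unadjusted p under 0.05. The study took that p from Student's t-test. Here it was the limma p, with the t-test as an alternative. The test code was run on simulated data with independent noise. Those data lack shifts shared across an array, so the run does not gauge the calls made here. Figures used Python 3.11.15 and matplotlib 3.10.9. No spot was saturated, and the number of arrays limits the precision. Intervals are at 95%.

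All probes of the members are given. Of each list, genes past a threshold are named, or the 2 of smallest p where fewer than 2 pass. *Mpc1*, *Mpc2*, *Slc16a3*, *Angptl4*, *Dcn*, *Cd68* and *Lyz2* were named after their values were seen. The members and lists were chosen with earlier results of these data known. The 20 alternatives covered normalization, background, filters, the methods' t-test, blocks, weights, a trend, each array left out and 1 probe for each gene. The deposited normalized values served as an alternative only.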

Additional observations from a re-analysis of the deposited data

How the results depend on the processing

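No member probe passed the adjusted p of 0.05 under 19 of the 20 alternatives. The exception was estimated array weights, where 8 of 19 probes passed, beside 16.6% of all probes, and 26 of the 79 genes of the neighbouring lists; that fit gave NEXN-WT replicate 1 a weight of 0.23 and NEXN-S437E replicate 3 one of 3.61, and the cause was not tested. The 8 log2 fold changes there were 0.45 (*Pdhx* A_55_P2115176), 0.48 (*Pdk1* A_55_P2590803), 0.54 (*Pdhb* A_66_P103403), 0.48 (*Dlat* A_51_P265106), 0.57 (*Pdha1*), 0.42 and 0.35 (*Pdp1*) and 0.49 (*Dld*). At the study's 2-fold rule the member count was 1 with the slide row as a block and within slide row 1 (0 in the main test), and 0 to 1 with an array left out; row 2 holds NEXN-S437E arrays only, so both row fits set NEXN-S437E replicate 1 alone against NEXN-WT, assuming that it varies like that group. That count for the lists was 0 by the methods' t-test, within slide row 1 and with array weights, against 1, and 0 to 3 with an array left out. With an array left out the counts past the adjusted p were 0 for members and 0 for lists. The methods' t-test gave 3 member probes at an unadjusted p under 0.05 and 0 after Benjamini-Hochberg.

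Signs turned in 24 of 371 comparisons of a member probe with its main value, each with an adjusted p above 0.05. *Pdhb* A_55_P1953972 was -0.14 under quantile normalization, normexp and the deposited values, -0.015 with the percentile over detected probes, and -0.045 with the slide row as a block and within row 1. *Dlat* A_55_P2605643 was -0.00093 under normexp, -0.37 with the row as a block and within row 1, and from -0.079 (without NEXN-WT replicate 1) to 0.46 with an array left out. *Pdk1* A_51_P406429 was -0.11 with the percentile over detected probes, -0.30 with the row as a block and within row 1, and from -0.084 to 0.16 with an array left out, below 0 in 4 of those 6 fits. *Pdhb* A_55_P1969775 was -0.070 with the row as a block and within row 1, -0.13 with array weights and from -0.098 (without NEXN-WT replicate 3) to 0.33 with an array left out; *Pdha1* was -0.00011 with the row as a block and within row 1; *Pdhx* A_66_P135136 was -0.0081 with array weights. The percentile over detected probes moved the median of all probes from 0.09 to -0.02, and 18 of 19 members lay above that median in both.

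With the replicate number as a block the counts stayed at 0 of 19 past the adjusted p, with 4 of 19 at an unadjusted p under 0.05 against 6. The numbers did not pair the samples, since deviations of arrays with the same number correlated at -0.15, -0.03 and -0.18. Without a filter on dim probes 1 member probe had an unadjusted p under 0.05, and 10 with an intensity trend or array weights, and 1 with the slide row as a block. For the lists that count was 15 by the methods' t-test, 19 without the filter, 6 with the row as a block and 2 within row 1, against 30. Without the filter the median of all probes was 0.28, and 14 of 19 members lay above it. Under normexp the difference came to 0.10 (*Pdk1* A_55_P2826334), 0.39 (*Pdk1* A_55_P2590803), 0.18 (*Dld*), 0.24 (*Pdha1*), 0.115 (*Pdp1* A_55_P2269497) and 0.21 (*Pdp1* A_51_P452637), and under quantile normalization to 0.18 (*Pdk1* A_55_P2826334) and 0.23 (*Dld*). With the slide row as a block *Pdhx* A_55_P2115176 came to 0.17 and *Dld* to 0.11, while *Pdk1* A_55_P2590803 rose to 1.03 and *Pdp2* A_66_P111285 to 1.01.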
